A study of Homo sapiens with 21 samples.

Results

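First-intron distal sites are stretches of accessible chromatin that lie inside the first intron of an annotated gene and more than 3000 bases from the nearest annotated transcription start site. They were chosen from the consensus list of accessible sites of the neuroblastoma cell line SK-N-BE(2) by the annotation that accompanies the list, on the GRCh38 build, and no accessibility value entered the choice. The rule kept 42073 of 367900 sites, or 11.4%, and a further 5364 first-intron sites that lay within 3000 bases of a start site were left out. The annotation placed the 42073 sites in 7029 host genes. For 29793 of them (70.8%) the host was also the gene with the nearest start site, and 29292 lay downstream of that start. The median distance to the nearest start was 28341 bases and the largest was 1096778 bases.

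The assay was ATAC-seq. A transposase, Tn5, cuts and tags DNA where chromatin is open, so a site with more reads is more accessible. SK-N-BE(2) is an established MYCN-amplified neuroblastoma line. All cells were transduced with lentiviral particles, in biological triplicates, and were collected 72 h later. There were 7 groups of 3 libraries. Besides Control, ARID1A was silenced in shARID1A.2 and in shARID1A.4, and ARID1B in shARID1B.2 and in shARID1B.3. Each of the 2 combinations, named shARID1A/B.2.3 or shARID1A/B.4.2 after its shRNAs, silenced ARID1A together with ARID1B. The model is a single cell line, and how far each shRNA lowered its target was not analysed here, because reads from DNA do not measure ARID1A or ARID1B transcript or protein.

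Introns near the start of a gene often hold enhancers, stretches of DNA that bind transcription factors and raise transcription of the host or of another gene. BAF is a chromatin remodelling complex that slides and evicts nucleosomes and keeps many enhancers open. ARID1A and ARID1B are alternative subunits of that complex, so a cell that loses one can still assemble BAF with the other.

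Libraries held between 16140029 and 44472230 reads in sites. Between replicates of one group, the variation in site counts was 1.08 to 2.5 times that of counting alone, so no pair of libraries looked like the same one deposited again. The widest pairs were those of shARID1A/B.2.3 replicate 2 with replicates 1 and 3, at 2.5 and 2.22. Genes that mark neuroblastoma cells, HAND2, GATA3 and CHGA among them, had sites within 1000 bases of their start, at 2.43 to 43.9 CPM in Control, where CPM are reads at a site scaled to a common library size. ISL1 and MYCN had none under their own symbol. Of genes that mark other cells, ALB, APOA1, PTPRC, CD3E and KRT5 had none, and EPCAM, MYOD1 and DES had 6.41 to 12.7 CPM. In a bulk culture, fewer cells with a site open and less accessibility in each cell cannot be told apart.

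The sequences below are the central 300 bases, on the plus strand of GRCh38, of some of the sites with the largest changes after silencing of both genes. KALRN, MAP4K4, DPH6-AS1 and PHACTR3 host the falls, and USP25 and EYA2 the rises. They are shown because these sites carry the result at its strongest. Capitals mark matches, on either strand, to any of 10 short words that factors of this tissue or general factors are known to bind. The word searched for AP-1 was TGANTCA, that for GATA factors was AGATAA and that for TEAD factors was CATTCC. The E-box bound by HAND and TWIST proteins was searched as CATCTG, and the E-box bound by ASCL proteins as CAGCTG. RUNX factors were searched by TGTGGT, SOX factors by ACAAAG, homeobox factors by TAATTA and the NFI half-site by TTGGCA. The core of the CTCF motif was searched as AGNNGGC, where the first open base was purine and the next was G or T.
KALRN (chr3:124126993-124127292): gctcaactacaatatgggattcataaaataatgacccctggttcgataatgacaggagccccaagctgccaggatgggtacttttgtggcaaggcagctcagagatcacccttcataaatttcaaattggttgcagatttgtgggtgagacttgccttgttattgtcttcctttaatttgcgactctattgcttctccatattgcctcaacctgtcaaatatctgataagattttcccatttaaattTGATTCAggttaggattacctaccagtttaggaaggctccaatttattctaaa
MAP4K4 (chr2:101809733-101810032): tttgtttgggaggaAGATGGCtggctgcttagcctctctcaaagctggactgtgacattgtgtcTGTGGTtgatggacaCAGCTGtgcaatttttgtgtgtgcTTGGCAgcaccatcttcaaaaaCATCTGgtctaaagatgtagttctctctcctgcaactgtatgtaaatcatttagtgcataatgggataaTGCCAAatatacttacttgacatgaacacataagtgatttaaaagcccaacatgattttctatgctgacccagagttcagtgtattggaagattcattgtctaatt
DPH6-AS1 (chr15:35701753-35702052): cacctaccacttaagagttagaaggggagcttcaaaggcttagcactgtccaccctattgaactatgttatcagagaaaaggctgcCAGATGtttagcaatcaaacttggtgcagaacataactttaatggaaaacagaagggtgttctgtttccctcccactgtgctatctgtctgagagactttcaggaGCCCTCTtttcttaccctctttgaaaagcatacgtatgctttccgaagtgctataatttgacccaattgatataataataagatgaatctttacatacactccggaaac
PHACTR3 (chr20:59580661-59580960): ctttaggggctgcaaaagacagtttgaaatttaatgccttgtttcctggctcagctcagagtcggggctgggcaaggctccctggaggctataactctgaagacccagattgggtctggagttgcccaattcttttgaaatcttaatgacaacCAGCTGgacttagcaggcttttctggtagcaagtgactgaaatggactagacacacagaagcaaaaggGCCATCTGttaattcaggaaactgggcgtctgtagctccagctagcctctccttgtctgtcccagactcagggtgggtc
USP25 (chr21:15819871-15820170): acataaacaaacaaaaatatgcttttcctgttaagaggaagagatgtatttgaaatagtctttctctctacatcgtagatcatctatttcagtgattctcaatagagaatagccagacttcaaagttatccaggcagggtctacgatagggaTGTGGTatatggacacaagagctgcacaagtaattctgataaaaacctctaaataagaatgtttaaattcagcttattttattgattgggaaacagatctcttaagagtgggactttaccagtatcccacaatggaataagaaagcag
EYA2 (chr20:46971226-46971525): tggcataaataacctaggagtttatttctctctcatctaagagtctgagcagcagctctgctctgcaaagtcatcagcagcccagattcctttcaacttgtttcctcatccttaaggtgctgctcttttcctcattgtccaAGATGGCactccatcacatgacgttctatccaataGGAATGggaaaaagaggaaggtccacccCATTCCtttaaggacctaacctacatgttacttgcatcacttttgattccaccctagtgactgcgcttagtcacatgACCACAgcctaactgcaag
The KALRN window held a single match, an AP-1 word. In the PHACTR3 window a CTCF core and a HAND and TWIST E-box overlapped and appear as 1 run of capitals, beside an ASCL E-box. MAP4K4 held NFI half-sites, both E-boxes, a RUNX word and a CTCF core, and DPH6-AS1 held a HAND and TWIST E-box and a CTCF core. Of the rises, USP25 held a RUNX word, and EYA2 held TEAD words with a RUNX word and a CTCF core. The 4 windows of the falls were 39.7% to 49.7% G and C. A match describes these letters only and is not evidence that a factor binds there.

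Silencing ARID1A and ARID1B together closed many more first-intron distal sites than it opened. The question was how accessibility at these sites differed when BAF lost both subunits, so the average of the 2 combinations was compared with Control. Of 40987 sites with enough reads to test (97.4%, with 1086 left out), 5251 closed and 662 opened at an edgeR adjusted p under 0.01. That is 12.8% closed, beside 10.3% of all 357029 tested sites, and 1.62% opened, beside 3.43% of all tested sites. The median change of the closed sites was a log2 fold change of -0.86, that of the opened sites 0.58, and that of all first-intron distal sites -0.03, beside 0.03 over all tested sites. By at least 1 on the log2 scale, 1957 closed (4.77%, beside 4.46% of all tested sites) and 102 opened (0.249%, beside 0.252%), so that at this size the shares lay close to those of all tested sites. Later-intron distal sites, chosen by the same distance in any other intron, had 11.9% closed and 1.48% opened, and promoter sites 4.24% closed and 33.4% opened. Without shARID1A/B.2.3 replicate 2, 1012 opened (2.44%, beside 4.64% of all tested sites). When libraries were scaled on promoter sites, 8126 first-intron distal sites closed (19.8%, beside 15.8%) and 123 opened (0.3%, beside 0.692%), which moved the closed share of the called sites from 88.8% to 98.5% and their median log2 change by -0.23.

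Each combination on its own also closed more sites than it opened, in different proportions. In shARID1A/B.2.3 the closed sites numbered 5618 (13.7%, beside 10.4% of all tested sites) and the opened ones 581 (1.42%, beside 2.85%). In shARID1A/B.4.2 they numbered 3427 (8.36%, beside 7.37%) and 960 (2.34%, beside 3.97%). Silencing of ARID1A alone, averaged over its shRNAs, closed 2558 sites (6.24%, beside 5.37%) and opened 303 (0.739%, beside 1.67%). Silencing of ARID1B alone, averaged likewise, closed 1545 (3.77%, beside 3.53%) and opened 498 (1.22%, beside 1.39%), so that its closed share lay close to that of all tested sites. The shRNAs of each gene differed. With shARID1A.2, 2299 closed (5.61%, beside 4.54%) and 164 opened (0.4%, beside 0.834%). With shARID1A.4, 1851 closed (4.52%, beside 4.17%) and 569 opened (1.39%, beside 2.28%). With shARID1B.2, 721 closed (1.76%, beside 1.84%) and nearly as many, 669, opened (1.63%, beside 1.34%). With shARID1B.3, 2293 closed (5.59%, beside 4.88%) and 1032 opened (2.52%, beside 3.12%). The opened counts were sensitive to single libraries. Without Control replicate 3 shARID1A/B.2.3 opened 363 (0.875%, beside 1.88%). Without Control replicate 2 ARID1A silencing opened 140 (0.338%, beside 0.731%) and ARID1B silencing 274 (0.661%, beside 0.694%). Without shARID1A.2 replicate 2 ARID1A silencing opened 480 (1.16%, beside 2.58%). These comparisons share the Control libraries, and the counts are set side by side without a test between them.

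The combinations were also compared directly with the average of the 4 single shRNA groups, a comparison that does not use Control. Accessibility was lower with both genes silenced at 3758 first-intron distal sites (9.17%, beside 6.85% of all tested sites). It was higher at 156 (0.381%, beside 0.969%), and at 94 without shARID1A/B.4.2 replicate 3 (0.226%, beside 0.6%). The median change of the lower sites was -0.54 on the log2 scale, and 164 of them were lower by at least 1 (0.400%, beside 0.448% of all tested sites), a share on the other side of the background from that of all lower sites. Against each other, shARID1A/B.2.3 was lower than shARID1A/B.4.2 at 2026 sites (4.94%, beside 3.79%) and higher at 449 (1.10%, beside 1.43%).

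**Figure D1:**
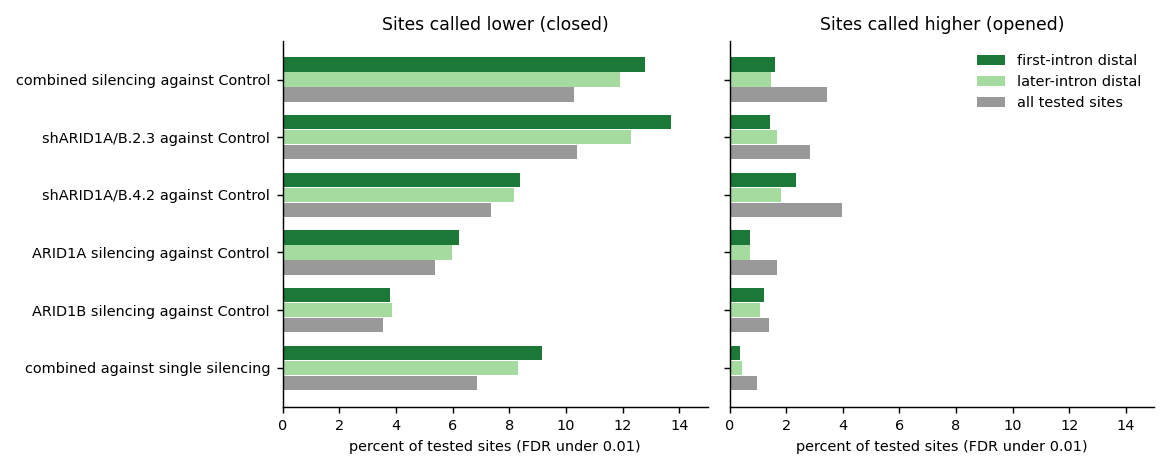
Percent of tested sites called lower (left) or higher (right) at an edgeR adjusted p under 0.01 (FDR) in each comparison, for first-intron distal sites, later-intron distal sites and all tested sites. First-intron distal sites closed in 12.8% and opened in 1.62% of cases after combined silencing, beside 10.3% and 3.43% of all tested sites.

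The share of all reads that fell in first-intron distal sites was lower after combined silencing. It was 9.26%, 9.15% and 9.29% in the Control libraries. In shARID1A/B.2.3 it was 8.19%, 7.97% and 8.25%, and in shARID1A/B.4.2 it was 8.38%, 8.41% and 8.40%. All 6 combination libraries lay below all 3 Control libraries, with means of 8.27% ± 0.17 (SD, n = 6) and 9.23% ± 0.07 (SD, n = 3). The difference was -0.97 percentage points (two-sided exact permutation test over libraries, p = 0.0238, the smallest that 6 against 3 libraries allow). The 6 ARID1A shRNA libraries averaged 8.63% ± 0.14 and also lay below Control (difference -0.61 points, two-sided exact permutation p = 0.0238). The 6 ARID1B libraries averaged 9.0% ± 0.27, of which the shARID1B.2 libraries overlapped Control and the shARID1B.3 libraries did not (two-sided exact permutation p = 0.286). Over the same libraries the share of reads in promoter sites was 20.0% to 20.6% in Control and 23.4% to 25.1% in the combinations. With promoter reads taken out of the total, the difference was -0.66 points (two-sided exact permutation p = 0.0238).

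Compared with later-intron distal sites, no difference between the combinations and Control was detected. The log2 ratio of reads in first-intron to reads in later-intron distal sites was -1.132, -1.146 and -1.132 in Control, and averaged -1.117 ± 0.031 (SD, n = 6) in the combinations. The difference was 0.020 (two-sided exact permutation p = 0.381), and the combinations lay on opposite sides of Control, at -1.144 ± 0.012 for shARID1A/B.2.3 and -1.089 ± 0.003 for shARID1A/B.4.2. Over sites of at most 2000 bases the difference was 0.

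**Figure D2:**
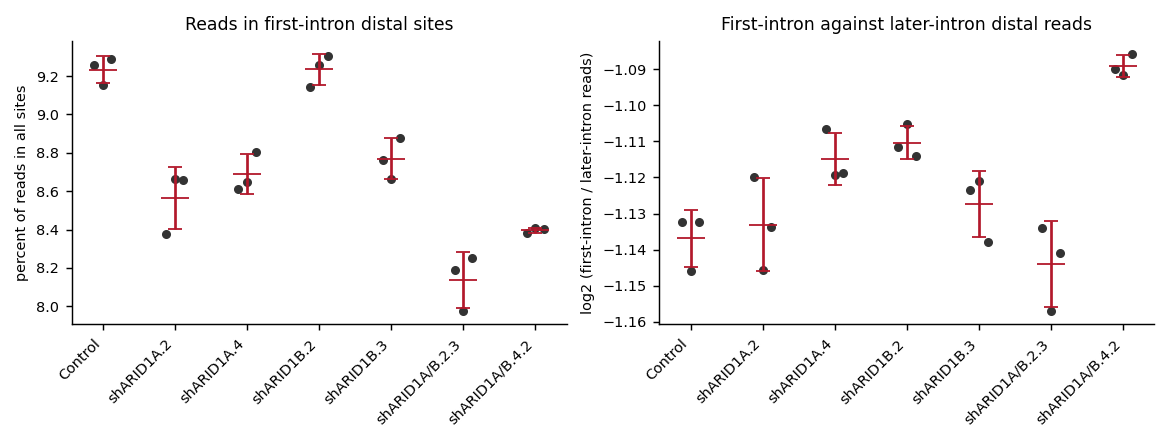
Left, percent of the reads in all sites that fell in first-intron distal sites, one point per library, with the mean and SD of each group of 3 (the vertical axis does not start at 0). Right, log2 ratio of reads in first-intron to reads in later-intron distal sites, drawn the same way, with shARID1A/B.4.2 at -1.089 and Control at -1.137 on average.

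The named falls were the 12 largest among 2550 first-intron distal sites that closed with both combinations, had a mean of at least 1 CPM and had all 6 combination libraries below all 3 Control libraries. Those 2550 were 6.22% of first-intron distal sites, beside 5.19% of all tested sites. The 12 changed by -3.03 to -2.31 on the log2 scale from Control levels of 2.33 to 16.7 CPM. Averaged over the shRNAs of a gene, all 12 also fell with ARID1A silencing and with ARID1B silencing on their own. With shARID1B.2 alone PLCE1 (-0.59), LINC01057 (-0.52), LIMD1-AS1 (-0.39) and LZTS1-AS1 (-0.07) did not pass. All 12 were lower with both genes silenced than on the average of the single shRNA groups (log2 difference -1.26 to -0.74). The sites were chosen for low values in the same combination libraries, which favours this direction, so it is a description. The difference did not hold for each shRNA. At LINC00540 shARID1B.3 held 1.61 CPM, beside 1.58 and 1.60 in the combinations, and at DPH6-AS1 0.482, beside 0.380 and 0.549. The host was the nearest gene for 8 of them.

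The largest fall was in KALRN, which encodes a guanine nucleotide exchange factor of neurons, at chr3:124126549-124127737, with MIR5002 as the nearest start. Control libraries held 7.55, 6.45 and 7.30 CPM there. The shARID1A/B.2.3 libraries held 0.985, 0.558 and 0.835 CPM and the shARID1A/B.4.2 libraries 0.941, 1.15 and 0.835 CPM. The single shRNA libraries held 1.06 to 2.14 CPM, of which 2 overlapped the combinations and none overlapped Control. The log2 change was -3.03 (SE 0.15, edgeR adjusted p = 1.66e-31) with both genes silenced, -2.13 with ARID1A and -2.19 with ARID1B silencing.

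The site in CCRN4L, an older symbol of the gene for the circadian deadenylase Nocturnin, had the highest Control level of the 12. It lies at chr4:139019168-139019831, 3740 bases downstream of the CCRN4L start. Control held 17.4, 17.1 and 15.5 CPM, shARID1A/B.2.3 held 2.79, 2.67 and 2.86, and shARID1A/B.4.2 held 3.23, 3.87 and 4.03. The log2 change was -2.38 (SE 0.10, edgeR adjusted p = 5.24e-36). With 3.07 CPM ± 0.21 (SD, n = 3), shARID1B.3 alone came as low as the combinations, whereas shARID1A.2 held 9.75 ± 1.23. In DPY19L4, a member of a family of C-mannosyltransferase-like proteins, the site at chr8:94743945-94744694 held 12.1, 9.20 and 11.1 CPM in Control. It held 1.64, 1.02 and 1.93 CPM in shARID1A/B.2.3 and 1.88, 2.30 and 1.72 in shARID1A/B.4.2 (log2 change -2.67, SE 0.13, edgeR adjusted p = 1.67e-31). No combination library came near the Control range at either site.

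Of the other falls in protein-coding hosts, those in MAP4K4, PHACTR3, PLCE1 and SMPDL3A started from 2.63 to 6.74 CPM. In MAP4K4, a kinase gene of the stress-activated pathway, the site at chr2:101809688-101810079 lies 111876 bases downstream of its start and fell from 4.54 CPM ± 0.456 (SD, n = 3) to 0.668 ± 0.115 and 0.793 ± 0.151 (log2 change -2.65, SE 0.16). In PHACTR3, a gene for a regulator of actin and of protein phosphatase 1, the site at chr20:59580294-59581328 fell from 6.74 ± 0.932 to 1.03 ± 0.332 and 1.24 ± 0.0885 (log2 change -2.57, SE 0.14). In PLCE1, the gene for phospholipase C epsilon, the site at chr10:94025501-94026263 fell from 2.63 ± 0.157 to 0.390 ± 0.083 and 0.534 ± 0.236 (log2 change -2.55, SE 0.20). PLCE1 was one of the sites where the single shRNAs differed from each other: shARID1B.3 held 0.253 ± 0.0958 CPM, at the level of the combinations, and shARID1B.2 held 1.77 ± 0.280. In SMPDL3A, a sphingomyelinase-like phosphodiesterase gene, the site at chr6:122792049-122792439 fell from 6.53 ± 0.925 to 1.0 ± 0.169 and 1.55 ± 0.307 (log2 change -2.41, SE 0.14).

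The remaining 5 falls lay in introns of non-coding transcripts. LINC00540 at chr13:22220115-22221272 fell from 9.18 CPM ± 0.763 (SD, n = 3) to 1.58 ± 0.224 and 1.60 ± 0.185 in the combinations (log2 change -2.51, SE 0.12, edgeR adjusted p = 5.83e-32). DPH6-AS1 at chr15:35701562-35702245 and LINC01057 at chr1:94755504-94756859 fell by 2.62 and 2.46. LIMD1-AS1 at chr3:45682191-45682938 and LZTS1-AS1 at chr8:20281924-20282865 both fell by 2.31. At LIMD1-AS1 the combinations differed, with 0.296 CPM ± 0.0765 in shARID1A/B.2.3 and 0.763 ± 0.118 in shARID1A/B.4.2 (log2 difference -1.42, edgeR adjusted p = 0.00182). At LZTS1-AS1 shARID1B.2 held 5.39 ± 0.868 CPM, with all 3 libraries inside the Control range of 4.44 to 6.40, and the other single shRNAs held 1.61 to 2.06.

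Rises were smaller and fewer. By the same conditions in the other direction, 126 first-intron distal sites opened (0.307%, beside 0.908% of all tested sites). The 6 largest rose by 1.09 to 1.39 from Control levels of 0.646 to 4.77 CPM. Of these, 2 were also higher with both genes silenced than on the average of the single shRNA groups, again among sites chosen on the combination libraries. FGF20, which encodes a fibroblast growth factor, led them, at chr8:16997246-16998034, 4525 bases downstream of its start. Control held 5.15, 4.56 and 4.61 CPM, shARID1A/B.2.3 held 10.4, 12.6 and 11.2, and shARID1A/B.4.2 held 14.8, 13.4 and 12.4. The log2 change was 1.39 (SE 0.11, edgeR adjusted p = 1.20e-19). Of the single shRNAs, shARID1A.2 overlapped Control at 4.75 CPM ± 0.321 (SD, n = 3), and shARID1A.4, shARID1B.2 and shARID1B.3 held 11.5 ± 0.451, 8.51 ± 1.13 and 13.7 ± 0.572.

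SNRPN, a gene of an imprinted locus that encodes a small nuclear ribonucleoprotein, had a site at chr15:24877726-24878723 that rose from 2.65, 3.21 and 2.97 CPM in Control. It held 7.19, 6.95 and 6.46 CPM in shARID1A/B.2.3 and 6.23, 5.71 and 5.38 in shARID1A/B.4.2 (log2 change 1.09, SE 0.13, edgeR adjusted p = 1.92e-11). EYA2, which encodes a transcriptional coactivator and phosphatase, rose at chr20:46971012-46971740 from 1.90 ± 0.252 (SD, n = 3) to 4.08 ± 0.402 and 4.18 ± 0.295 (log2 change 1.10, SE 0.15). The others lay in USP25, a deubiquitinase gene (chr21:15819427-15820616, log2 change 1.23, SE 0.21), in ATAD2, the gene of a bromodomain ATPase (chr8:123383801-123384842, 1.12, SE 0.23), and in RP11-317M11.1 (chr4:53706551-53706854, 1.10, SE 0.22). These 3 started from 0.646 to 0.778 CPM in Control, so their folds rest on few reads. All 6 rises passed the test when libraries were scaled on promoter sites, at log2 changes of 0.86 to 1.15.

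**Figure D3:**
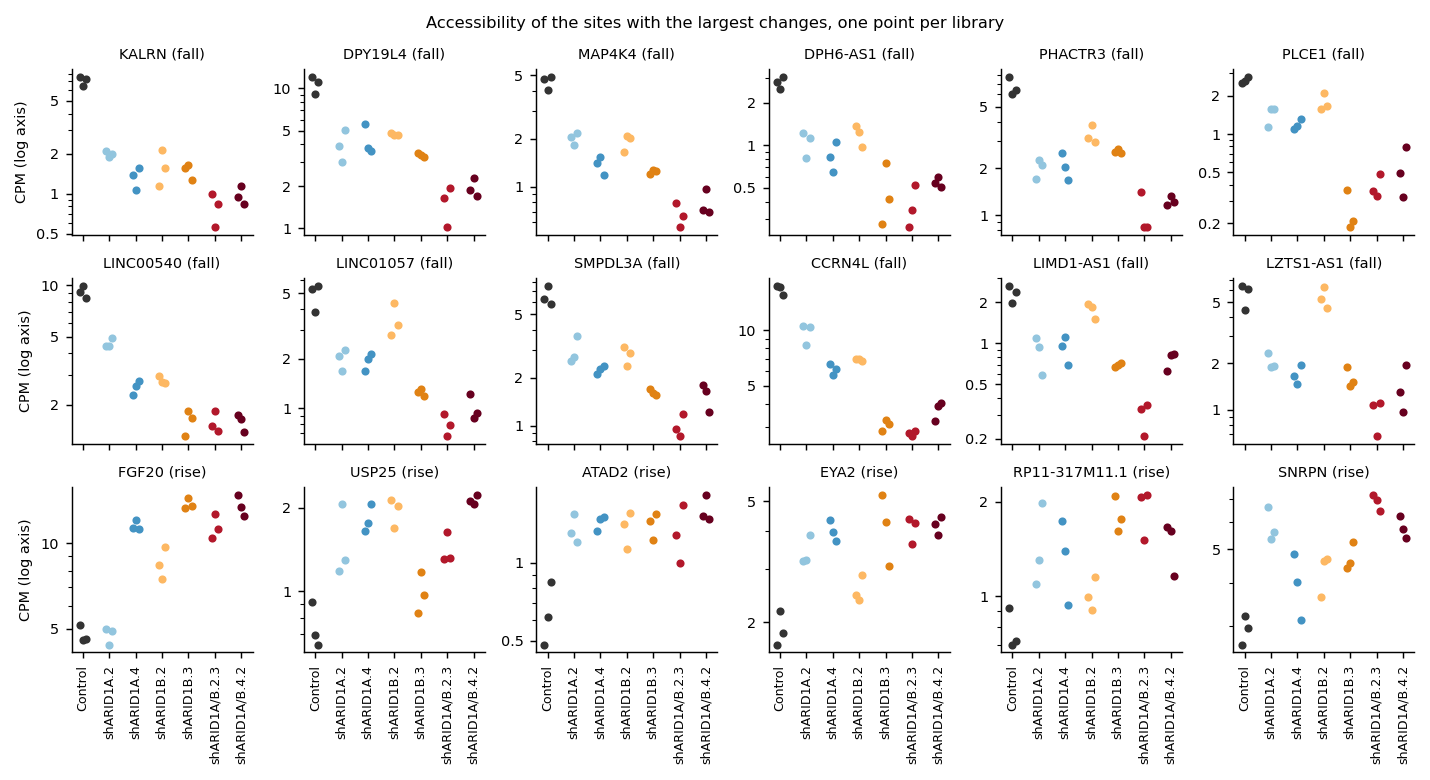
CPM on a log axis at the 12 named falls and 6 named rises, one point per library, in the 7 groups of 3. Each fall has its 6 combination libraries below its 3 Control libraries and each rise has them above, as the choice required, and the single shRNA libraries are drawn beside them.

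Closing followed the level of the site. Of the 7125 first-intron distal sites with a mean of up to 0.5 CPM over the 21 libraries, 2.26% closed. The share was 5.0% at 0.5 to 1 CPM, 10.4% at 1 to 2, 24.1% at 2 to 5 and 48.1% at 5 to 10. Over all tested sites the closed shares in these bands were 2.3%, 4.69%, 9.52%, 20.7% and 36.9%. Above 10 CPM, 39.5% of 1153 first-intron distal sites closed and 17.3% opened, beside 16.6% and 37.6% of all tested sites. The median log2 change of first-intron distal sites went from 0.07 in the lowest band to -0.34 at 5 to 10 CPM and -0.12 above 10. Low sites carry fewer reads, so a given fold is harder to detect there. Later-intron distal sites gave 47.7% at 5 to 10 CPM and 51.0% above 10, and opened in 10.5% above 10.

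By distance from the nearest start, the closed share was 13.0% of the 7926 sites at 3 to 10 kb, 12.9% at 10 to 50 kb, 12.6% at 50 to 100 kb and 12.5% beyond 100 kb. Later-intron distal sites closed in 10.9%, 11.3%, 12.4% and 12.5% of cases over these bands, and all tested sites in 10.6%, 11.1%, 11.3% and 9.63%. The 2 intron classes were thus furthest apart near the start and alike beyond 100 kb, without a test. The opened share of first-intron distal sites went from 2.18% to 1.68%, 1.37% and 0.994% over the same bands. Where the nearest start belonged to the host, 12.5% of 29032 sites closed, and where it belonged to another gene, 13.6% of 11955 closed.

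Opened first-intron distal sites differed from closed ones in their CpG dinucleotides. The central 300 bases of opened sites held 12.7 CpG on average, those of closed sites 3.16 and those of sites not called 3.74, beside 21.4 at promoter sites. Of the 662 opened sites, 182 (27.5%) held 20 or more and 395 (59.7%) held under 10. CpG-rich, unmethylated stretches are a known feature of promoters. The bands that follow were set after this difference was seen. Of the 622 tested first-intron distal sites with 20 or more CpG, 5 closed (0.804%) and 182 opened (29.3%), and their median log2 change was 0.23. Of the 29713 with at most 4, 3989 closed (13.4%) and 270 opened (0.909%), with a median of -0.04. Sites with 10 to 19 CpG lay between, at 8.36% closed and 4.31% opened. Promoter sites with 20 or more CpG opened in 49.4% of cases and closed in 0.418%. Later-intron distal sites showed the same split, with 17.9% opened and 0.974% closed at 20 or more CpG. With at most 4 CpG, 1.1% of them opened and 12.6% closed.

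The split by CpG also held among well-read sites. Above 5 CPM, 58.8% of the 1754 first-intron distal sites with at most 4 CpG closed and 2.68% opened, while 0.969% of the 413 with 20 or more closed and 41.2% opened. Later-intron distal sites above 5 CPM were alike, at 58.2% closed and 3.45% opened with at most 4 CpG. With 20 or more, 1.45% of them closed and 36.7% opened. The direction at CpG-rich sites depended on the scaling. Scaled on promoter sites, 52 of the 622 closed and 44 opened with a median of 0, while 6018 of the 29713 CpG-poor sites closed with a median of -0.27. In reads, sites with 20 or more CpG took 8.67%, 8.38% and 8.56% of the first-intron distal reads in Control. They took 11.26%, 11.10% and 10.91% in shARID1A/B.2.3 and 11.75%, 11.67% and 11.79% in shARID1A/B.4.2, all above Control. Among single shRNAs they took 10.22% ± 0.73 (SD, n = 3) in shARID1A.2, 10.67% ± 0.47 in shARID1A.4, 8.89% ± 0.22 in shARID1B.2 and 9.88% ± 0.46 in shARID1B.3. Since the band was chosen on these data, no test is given.

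**Figure D4:**
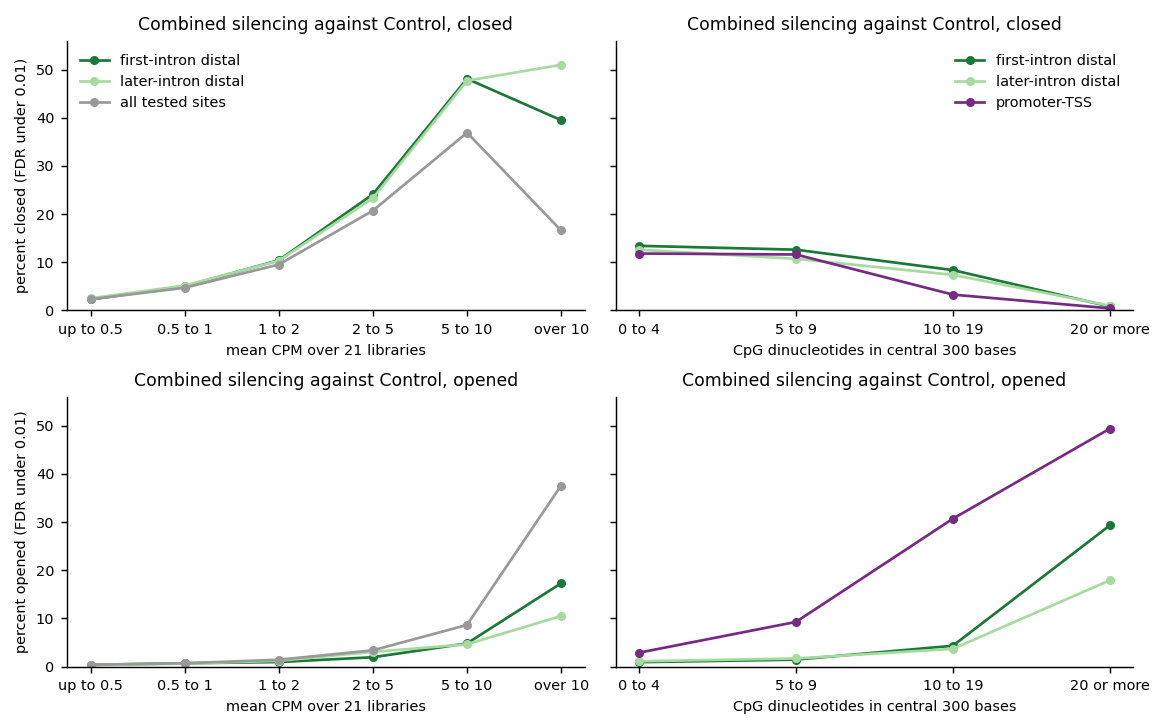
Percent of sites closed (top) and opened (bottom) by combined silencing, by mean CPM band (left) and by the number of CpG dinucleotides in the central 300 bases (right), at an edgeR adjusted p under 0.01. First-intron distal sites closed in 48.1% of cases at 5 to 10 CPM, beside 36.9% of all tested sites. With 20 or more CpG, first-intron distal sites opened in 29.3% of cases, beside 49.4% of promoter sites.

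Of the 5 most accessible first-intron distal sites in Control, 3 rose on the average of the combinations and none fell on it, which depended on the scaling, as given below. PTP4A1, a gene for a tyrosine phosphatase, held 90.8, 104 and 91.1 CPM in Control at chr6:63571742-63574546, and 110 to 141 CPM over the 6 combination libraries (log2 change 0.44, SE 0.07, edgeR adjusted p = 3.90e-07). ZBTB2, a zinc finger gene, rose from 88.7 CPM ± 5.90 (SD, n = 3) to 107 ± 10.8 and 104 ± 2.03, and AC011747.7 from 86.0 ± 3.48 to 101 ± 3.86 and 105 ± 2.81. The ZBTB2 call was lost without Control replicate 1 or 3 or shARID1A/B.4.2 replicate 3 (0.24, 0.21 and 0.24), and the AC011747.7 call without Control replicate 3 (0.25). None of these 3 rises passed the test when libraries were scaled on promoter sites (log2 changes 0.20, 0.01 and 0.02), and 2 of them turned to -0.14 and -0.13 under offsets fitted to abundance. Under those offsets PTP4A1 changed by 0.02 and did not pass. IGSF9B, which encodes a synaptic adhesion protein, held 92.1 ± 2.69 in Control and 94.8 ± 3.70 and 98.2 ± 1.68 in the combinations and did not pass. It passed as a fall when scaled on promoter sites (-0.17) and with offsets fitted to abundance (-0.33). SDC1, the gene of the cell surface proteoglycan syndecan 1, differed between the combinations. It held 83.1, 77.8 and 79.8 CPM in Control, 62.1, 55.7 and 60.1 in shARID1A/B.2.3 and 88.0, 89.7 and 88.3 in shARID1A/B.4.2 (difference between combinations -0.58 on the log2 scale, edgeR adjusted p = 7.71e-09). The average change at SDC1 was -0.15 and did not pass. It passed as a fall when scaled on promoter sites (-0.38) and with offsets fitted to abundance (-0.49).

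Host genes differed widely in how many of their first-intron sites closed. The tested sites lay in 6959 hosts with a median of 2 sites each, and 2447 hosts had at least 1 closed site, 580 at least 1 opened site and 242 both. In the 1096 hosts with at least 10 tested sites, which held 60.4% of the tested first-intron distal sites, the closed share had a median of 9.09% and quartiles of 0% and 20.0%. Of these hosts 276 had no closed site and 26 had 50% or more closed. Going along a host's first intron, the site after a closed site was itself closed in 26.2% of cases, and the site after one that had not closed was closed in 10.6%. Adjacent sites were 3868.5 bases apart in the median. Of 34028 adjacent pairs, the first site was closed in 4238 and opened in only 408. A closed site lay beside an opened one in 102 pairs. Since opened sites were rare, this count does not show that closed and opened sites lay apart, and that was not tested.

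The 6 hosts with the highest closed share were chosen by that share, so their counts are a description. GNG12-AS1, a non-coding gene on chromosome 1, had 9 of 12 sites closed and 0 opened. HIVEP3, a zinc finger gene, had 8 of 11 closed and 1 opened, and GPM6B, which encodes a neuronal membrane glycoprotein, had 7 of 10 closed. CACNA2D1, a calcium channel subunit gene, and ZBTB7C, a zinc finger gene, each had 7 of 11 closed, and NCALD, the gene of the neuronal calcium sensor neurocalcin delta, had 6 of 10. Summed over its sites, NCALD held 37.4 CPM ± 4.25 (SD, n = 3) in Control, 17.8 ± 1.65 in shARID1A/B.2.3 and 19.1 ± 0.57 in shARID1A/B.4.2. The summed level was 23.3 ± 0.777 and 21.6 ± 0.582 in the ARID1A groups and 37.4 ± 1.65 and 30.5 ± 1.43 in the ARID1B groups, and these sums were not tested.

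The 5 hosts with the most sites had closed shares of 0.581% to 9.05%, at or below the median of hosts with at least 10 sites and within their quartiles. KCNIP4, which encodes a potassium channel interacting protein, had 232 tested sites in its first intron, of which 21 closed (9.05%) and 3 opened. The cell adhesion genes OPCML, CNTNAP2, CNTN5 and NTM had 223, 207, 172 and 152 sites, of which 13, 6, 1 and 8 closed. Summed over its sites, CNTN5 held 250 CPM ± 36.0 (SD, n = 3) in Control, 287 ± 51.1 in shARID1A/B.2.3 and 251 ± 4.00 in shARID1A/B.4.2, so the groups overlapped.

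Among 11 lists of host genes, the closed share of first-intron distal sites ranged from 9.14% to 29.6%, beside 12.8% of all first-intron distal sites, and their medians from -0.29 to 0.03, beside -0.03. The sites named for each list were those with the highest mean level, whatever their change. Of these 44 sites, 17 closed and 8 opened, where 39.5% of all first-intron distal sites above 10 CPM closed and 17.3% opened. Not all of the 44 lay above 10 CPM, and the lowest, in CDKN2A, had a mean of 3.52 CPM. The closed share of all first-intron distal sites was 24.1% at 2 to 5 CPM and 48.1% at 5 to 10, so the levels are not matched.

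Genes that guide growing axons had 100 of 423 tested sites closed (23.6%) and 3 opened, with a median log2 change of -0.17. The closed sites lay in 25 of 36 genes. SEMA5B, which encodes a semaphorin, fell at chr3:122973789-122976179 from 39.9, 36.2 and 38.7 CPM in Control to 13.9 ± 1.44 (SD, n = 3) and 17.4 ± 0.925 (log2 change -1.30, SE 0.08, edgeR adjusted p = 9.55e-27), with smaller falls of 0.40 and 0.30 after ARID1A and ARID1B silencing alone. The strongest axon guidance site lay in the ephrin receptor gene EPHA7 and rose from 60.2 ± 6.93 to 86.7 ± 13.0 and 71.6 ± 2.32 (log2 change 0.39, edgeR adjusted p = 1.55e-05). That call was lost when scaled on promoter sites (0.15) and with offsets fitted to abundance (0.06). The semaphorin gene SEMA6D held 26.2 ± 1.22 in Control, 22.7 ± 1.19 in shARID1A/B.2.3 and 32.5 ± 0.34 in shARID1A/B.4.2 and did not pass on average. The receptor gene ROBO1 held 22.5 ± 1.14, 21.7 ± 0.945 and 24.0 ± 0.674.

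Guanine nucleotide exchange factors of the cytoskeletal GTPases, to which KALRN belongs, had 76 of 399 sites closed (19%) in 24 of 33 genes, and 8 opened. DOCK4 fell from 28.9 CPM ± 0.795 (SD, n = 3) to 15.7 ± 1.25 and 15.8 ± 0.201 (log2 change -0.87, SE 0.08, edgeR adjusted p = 6.66e-17). TRIO, a paralogue of KALRN, rose from 23.8 ± 1.0 to 27.2 ± 0.563 and 33.7 ± 0.47 (log2 change 0.35). This rise did not pass when scaled on promoter sites (0.11) or with offsets fitted to abundance (0.19). PLEKHG1 and DOCK10 held 17.4 ± 0.968 and 16.9 ± 0.975 in Control, with log2 changes of 0.03 and 0.05 that did not pass.

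Transcription factors of the adrenergic neuroblastoma state, which resembles committed sympathetic neurons, had 23 of 87 sites closed (26.4%) and 0 opened, with the most negative median of the lists (-0.29). Closed sites lay in 9 of 10 genes. RARB, a retinoic acid receptor gene, fell from 15.2 CPM ± 0.558 (SD, n = 3) to 12.1 ± 0.965 and 9.66 ± 0.478 (log2 change -0.49, SE 0.09, edgeR adjusted p = 3.49e-06), and EYA1, a coactivator gene, from 16.2 ± 0.208 to 10.8 ± 0.727 and 13.4 ± 0.387. KLF13, a zinc finger factor gene, held 14.6 ± 1.52 in Control and 10.8 ± 1.56 and 13.6 ± 0.598 in the combinations, and did not pass (log2 change -0.27), although it rose by 0.44 with ARID1B silencing alone. The KLF13 fall with combined silencing passed when scaled on promoter sites (-0.51) and with offsets fitted to abundance (-0.31). Of the 87, shARID1A/B.2.3 closed 31 and opened 0, whereas shARID1A/B.4.2 closed 16 and opened 5.

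Factors of the mesenchymal state, the other main state of neuroblastoma cells, had 26 of 109 sites closed (23.9%) in 7 of 12 genes and 1 opened. SMAD3, a TGF-beta signal transducer gene, fell from 6.96 CPM ± 1.41 (SD, n = 3) to 4.28 ± 0.674 and 4.92 ± 0.29 (log2 change -0.61, edgeR adjusted p = 2.02e-05). MAML2, a NOTCH coactivator gene, rose from 41.0 ± 0.959 to 45.3 ± 2.46 and 54.1 ± 1.53 (log2 change 0.27). That call was lost without Control replicate 3 (0.26), when scaled on promoter sites (0.04) and with offsets fitted to abundance (0.03). The sites in RUNX2 and TWIST2 changed by 0.23 and -0.21 and did not pass, although RUNX2 passed without shARID1A/B.2.3 replicate 3 (0.28) and TWIST2 when scaled on promoter sites (-0.45). Both lists had a larger closed share than the 12.8% of all first-intron distal sites, and also a higher median level, at 1.64 CPM (adrenergic) and 1.91 CPM (mesenchymal), beside 1.06 CPM. The closed share rose with level, and its part in this difference was not tested.

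Integrins, the receptors that anchor cells to matrix, had 8 of 35 sites closed (22.9%) in 4 of 11 genes and 0 opened. ITGB1, which encodes the beta subunit shared by many integrins, fell from 10.9 CPM ± 1.39 (SD, n = 3) to 6.34 ± 0.196 and 8.03 ± 0.0893 (log2 change -0.61, SE 0.10, edgeR adjusted p = 2.18e-07). ITGA1 fell from 6.82 ± 0.535 to 3.25 ± 0.525 and 4.43 ± 0.487 (log2 change -0.84, SE 0.11). The strongest integrin site, in ITGAV, held 58.7 ± 2.62, 56.4 ± 2.43 and 47.8 ± 1.44 and did not pass (-0.18), and neither did ITGA11 (-0.18). When scaled on promoter sites both passed, at -0.42 and -0.41. With offsets fitted to abundance ITGAV also passed (-0.46).

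Matrix genes had 20 of 158 sites closed (12.7%), the share of all first-intron distal sites, and 0 opened. Within them TNR, which encodes the brain matrix glycoprotein tenascin R, held 23, 23.8 and 22.8 CPM in Control at chr1:175573027-175574197. It fell to 3.52 ± 0.51 (SD, n = 3) in shARID1A/B.2.3 and 8.46 ± 0.266 in shARID1A/B.4.2 (log2 change -2.08, SE 0.09, edgeR adjusted p = 7.58e-35). RELN, the gene of reelin, a guide of migrating neurons, fell from 9.13 ± 0.397 to 4.08 ± 0.892 and 4.07 ± 0.276 (log2 change -1.17, SE 0.11). RELN fell with ARID1A silencing alone (-0.76) and held 9.34 ± 0.516 and 11 ± 0.81 CPM in the ARID1B groups. COL4A1 and AGRN, genes of basement membrane proteins, changed by -0.13 and 0.25 and did not pass, although COL4A1 passed when scaled on promoter sites (-0.37).

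Cadherins and protocadherins, which join cells to each other, had 16 of 175 sites closed (9.14%) and 4 opened, with a median of 0. N-cadherin, CDH2, rose from 30.9 CPM ± 1.97 (SD, n = 3) to 44.2 ± 1.89 and 41.8 ± 0.586 (log2 change 0.48, SE 0.08, edgeR adjusted p = 3.32e-07). Its site held 47 CpG in 300 bases. CDH18 fell from 18.3 ± 2.13 to 12 ± 1.06 and 10.9 ± 0.737 (log2 change -0.67, SE 0.09), with -0.78 after ARID1B and -0.20 after ARID1A silencing, of which the first passed. PCDH1 rose by 0.28, a call lost without Control replicate 1, Control replicate 2, shARID1A/B.2.3 replicate 1 or shARID1A/B.4.2 replicate 3 (log2 change 0.26, 0.27, 0.27 and 0.26). The PCDH1 call was also lost when scaled on promoter sites (0.04) and with offsets fitted to abundance (0.14). CDH22 changed by 0.31 and did not pass, but passed without shARID1A/B.2.3 replicate 2 (0.41) and with offsets fitted to abundance (0.41).

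Ion channels and transmitter receptors, the list with most sites, had 91 of 871 closed (10.4%) and 11 opened. GRIK4, a kainate receptor gene, fell from 35.0 CPM ± 4.46 (SD, n = 3) to 16.5 ± 3.34 and 25.2 ± 0.38 (log2 change -0.78, SE 0.08, edgeR adjusted p = 3.81e-13), and KCNIP1, a potassium channel interacting protein gene, from 15.8 ± 0.827 to 7.62 ± 1.19 and 13.1 ± 0.876 (-0.67, SE 0.10). Both were lower with shARID1A/B.2.3 than with shARID1A/B.4.2 (edgeR adjusted p = 2.15e-06 and 1.26e-07). The strongest sites in KCNIP4 and in the sodium channel gene SCN9A held 27.9 ± 2.94 and 25.6 ± 2.20 in Control and did not pass, at -0.19 and 0.11. The KCNIP4 site passed as a fall when scaled on promoter sites (-0.42) and with offsets fitted to abundance (-0.32).

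Growth factor receptors and ligands had 86 of 524 sites closed (16.4%) in 12 of 23 genes and 5 opened, while 3 of their 4 strongest sites rose. BDNF, a neurotrophin gene, rose from 34.7, 36.2 and 34.6 CPM in Control to 38.1 ± 1.74 (SD, n = 3) in shARID1A/B.2.3 and 61.5 ± 2.00 in shARID1A/B.4.2 (log2 change 0.46, SE 0.07, edgeR adjusted p = 1.18e-07). With shARID1A/B.2.3 alone the change of 0.12 did not pass. PDGFRA rose from 25.9 ± 1.45 to 35.8 ± 0.955 and 34.1 ± 1.55 (0.43), and EGFR from 20.6 ± 0.622 to 20.9 ± 1.44 and 31.1 ± 1.33 (0.31), of which the EGFR change passed with shARID1A/B.4.2 (0.59) and not with shARID1A/B.2.3 (0.03). The EGFR call was lost without Control replicate 1 or 3 (0.29 and 0.31). The rises in PDGFRA and EGFR did not pass when scaled on promoter sites (0.19 and 0.07). With offsets fitted to abundance the EGFR rise did not pass either (0.2). RET, a receptor kinase gene of sympathetic neurons, held 29.2 ± 2.13, 28.3 ± 2.19 and 36.5 ± 1.04 and did not pass on average.

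Subunit genes of BAF and the related PBAF and ncBAF complexes had 8 of 27 sites closed (29.6%) in 4 of 7 genes and 0 opened. Of the 27, shARID1A/B.2.3 closed 8 (29.6%, beside 13.7% of all first-intron distal sites) and shARID1A/B.4.2 closed 3 (11.1%, beside 8.36%). The median level of the list was 1.59 CPM, beside 1.06 CPM for all first-intron distal sites, and its part in the closed share was not tested. At the ARID1A site at chr1:26723096-26724024, Control held 10.5, 8.22 and 11.6 CPM, shARID1A/B.2.3 held 4.41 ± 0.685 (SD, n = 3) and shARID1A/B.4.2 held 8.57 ± 0.534 (log2 change -0.72, SE 0.11, edgeR adjusted p = 3.84e-08). The shARID1A/B.4.2 libraries overlapped the Control range. The strongest ARID1B site fell from 7.51 ± 0.992 to 4.82 ± 0.891 and 5.6 ± 0.431 (-0.54), and DPF3, a gene for a subunit of neural and muscle BAF, from 5.97 ± 0.808 to 2.30 ± 0.343 and 3.30 ± 0.448 (-1.10, SE 0.12). DPF1 changed by 0.15 and did not pass. None of these values checks the shRNAs, which act on RNA.

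Cell cycle genes had 5 of 48 sites closed (10.4%) and 0 opened. CDKN1A, the gene of the inhibitor p21, fell by 0.33 from 18.0 CPM ± 2.98 (SD, n = 3) to 13.4 ± 1.84 and 15.4 ± 1.41 (edgeR adjusted p = 0.00639). That call was lost without Control replicate 1 or 3, shARID1A/B.2.3 replicate 2 or 3, or shARID1A/B.4.2 replicate 1 or 2, where the log2 change was -0.32 to -0.24. It was also lost with DESeq2. Of the combinations, only shARID1A/B.2.3 raised the site in CDK6, a cell cycle kinase gene (0.81), and the average did not pass (0.26). Control held 10.5 ± 1.72, shARID1A/B.2.3 18.3 ± 1.99 and shARID1A/B.4.2 8.63 ± 0.582. Without Control replicate 2 the average passed (0.41). Of the single shRNAs, shARID1B.3 also raised it, to 17.7 ± 0.911 (0.75), and shARID1B.2 held 10.4 ± 0.561. E2F5 and CDKN2A held 4.22 ± 0.347 and 3.11 ± 0.173 in Control and did not pass.

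**Figure D5:**
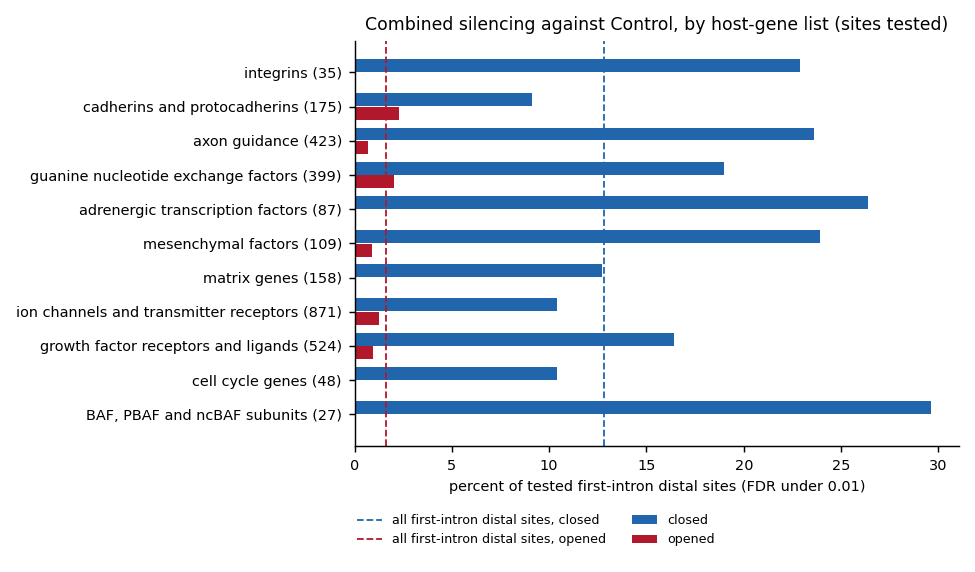
Percent of tested first-intron distal sites closed (blue) and opened (red) by combined silencing in each of 11 lists of host genes, with the number of sites tested in brackets. Dashed lines mark the shares over all first-intron distal sites, 12.8% closed and 1.62% opened.

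Closed and other first-intron distal sites also differed in sequence. Closed sites were 44% G and C in the median, opened sites 53.0% and sites not called 46.3%. The HAND and TWIST E-box word occurred in 31.9% of closed sites, 19.3% of opened sites and 22.7% of sites not called, beside 23% of all tested windows of the same length. The GATA word occurred in 23.7%, 13.6% and 17.4% (17.0% of all), the homeobox word in 13.0%, 5.59% and 8.34% (7.87% of all), and the NFI half-site in 21.8%, 13.4% and 17.1% (17.1% of all). HAND2 and GATA3, whose families bind the E-box and the GATA word, are identity factors of this tumour.

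Other words differed less or the other way. AP-1 occurred in 13.5% of closed and 11.1% of uncalled sites (10.9% of all), the ASCL E-box in 19.6% and 16.4% (17.6%), and TEAD in 19.3% and 17.4% (16.8%). RUNX, at 19% and 20.8% (20.1%), and SOX, at 21.6% and 22.3% (21.9%), were no more frequent in closed sites. The CTCF core occurred in 31.0% of opened, 20.4% of closed and 19.8% of uncalled sites (21.5% of all). Later-intron distal sites that closed held the HAND and TWIST E-box in 33.0% and GATA in 25.2% of windows.

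Short words follow base composition, so closed shares were also read within bands of G and C content. First-intron distal sites with the HAND and TWIST E-box closed in 23.9%, 16.2%, 14.7% and 16.5% of cases at under 40%, 40 to 50%, 50 to 60% and over 60% G and C. Those without it closed in 16%, 10.5%, 9.67% and 8.19%. With GATA the shares were 20.2%, 14.4%, 15.1% and 15.4%, and without it 16.4%, 11.3%, 10.6% and 9.89%. The last GATA band held 65 sites. The other words read this way were AP-1 (19.4%, 13.2%, 14.6% and 21.2% with it, 17.3%, 11.7%, 10.6% and 9.3% without), homeobox (19.6%, 17%, 22.2% and 13.6% with it, 17%, 11.5%, 10.7% and 10% without) and the NFI half-site (20.8%, 14.4%, 14.1% and 15.7% with it, 16.8%, 11.4%, 10.3% and 9.23% without). For each of the 5 words the share was higher with the word in all 4 bands. These 5 were already more frequent in closed than in uncalled sites, which favours this direction, so it is a description. The TEAD, ASCL, RUNX, SOX and CTCF words were not read in bands, and the level of the sites was not matched. No test is given, since the sites share libraries, and the last homeobox band held 22 sites.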

How the data were processed

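ATAC-seq was run on 21 SK-N-BE(2) libraries, 3 in each of 7 groups, and groups and replicate numbers were taken from the sample titles. The authors deposited raw read counts per consensus site on GRCh38, not normalised, with a table that gives each site's annotation and its distance to the nearest start site in bases. For the aligner and the peak caller, names were not given in the sources used here. Deposited tables also hold 36 columns of normalised values and the authors' own DESeq2 fold changes and p-values, which were not used. The Control columns were the same in every table.

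The first-intron distal sites, the gene lists, the words searched and the tests were chosen with earlier results of these data known. Counts of all sites were fitted with edgeR 4.0.16 (R 4.3.3), quasi-likelihood test, TMM scaling, filterByExpr with a minimum count of 10, and 1 model over the 7 groups, which left 357029 of 367900 sites (common biological coefficient of variation 0.082). Contrasts averaged the groups named, p-values were adjusted by Benjamini-Hochberg over all tested sites, and a site was called under 0.01. CPM are counts scaled to a common TMM library size, and standard errors were derived from the log2 fold change and its F statistic. With 3 cultures of a line per group, p-values cover the spread between these cultures. The fit was tested on simulated data.

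Shares of reads were compared over libraries by two-sided exact permutation (scipy 1.17.1). Named sites were the 12 largest falls and 6 largest rises that separated all combination from all Control libraries at a mean of at least 1 CPM, at most 1 per nearest gene, the strongest site of up to 4 genes per list, the 5 sites with the highest Control CPM, and the 6 hosts with the highest closed share among those with at least 10 tested sites. Windows of 300 bases were read from the hg38 reference with pysam, which covered 367895 sites. Fits did not pair same-numbered libraries. Correlations of their deviations from the group means ran from -0.288 to 0.479 and exceeded 0.1 in all 3 pairs for Control with shARID1A/B.2.3, where the block moved no count of calls by over 1.5 times. Alternatives were other scalings, filters, thresholds and tools, a replicate block, thinning to the smallest library and leaving out each library. Some genes of the lists and markers are not reported here.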

Additional observations from a re-analysis of the deposited data

Results flagged for a closer look

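At 13 of the 67 named sites the effects of the 2 combinations differed from each other, by an edgeR test of the difference adjusted over all tested sites. Over all tested sites shARID1A/B.2.3 was lower at 3.79% and higher at 1.43%, and over first-intron distal sites at 4.94% and 1.1%. Named sites were chosen for large changes or high levels, so these shares are not matched to them. With shARID1A/B.2.3 lower than shARID1A/B.4.2, the log2 differences were -1.42 at LIMD1-AS1, -1.25 at TNR, -0.96 at ARID1A, -0.80 at KCNIP1, -0.69 at BDNF, -0.62 at GRIK4, -0.58 at SDC1, -0.56 at EGFR, -0.52 at SEMA6D, -0.37 at RET and -0.36 at PCDH1. With shARID1A/B.2.3 higher, they were 1.09 at CDK6 and 0.48 at KCNIP4. The 3 libraries of one combination did not overlap those of the other at any of the 13 sites.

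ARID1A silencing and ARID1B silencing differed at 18 named sites by the same test. Of tested first-intron distal sites 4.63% were lower and 0.815% higher with ARID1A than with ARID1B silencing, beside 3.69% and 1.05% of all tested sites. Those shares are not matched to the named sites either. Accessibility was lower with ARID1A silencing at RELN (log2 difference -0.91), LZTS1-AS1 (-0.66), DPF3 (-0.57), FGF20 (-0.55), PHACTR3 (-0.49), CDK6 (-0.42), ARID1A (-0.38), ITGB1 (-0.36), KLF13 (-0.36) and GRIK4 (-0.28). It was lower with ARID1B silencing at PLCE1 (0.95), CCRN4L (0.74), LINC00540 (0.69), CDH18 (0.58), RARB (0.51), ITGA1 (0.49), TNR (0.33) and AC011747.7 (0.33). These are averages over the 2 shRNAs of a gene, which often lay apart. The libraries of shARID1B.2 and shARID1B.3 did not overlap at 15 of the 18 sites, nor those of shARID1A.2 and shARID1A.4 at 9. All ARID1A libraries lay apart from all ARID1B libraries at 5 sites, RELN, ITGB1, CDH18, RARB and AC011747.7. At TNR the groups held 10.6 and 13.6 CPM with the ARID1A shRNAs, 17.1 with shARID1B.2 and 5.32 with shARID1B.3, so that the lower average there came from shARID1B.3. At PLCE1 shARID1B.2 held 1.77 and shARID1B.3 0.253 CPM, at LZTS1-AS1 5.39 and 1.61, at CDK6 10.4 and 17.7, and at CCRN4L 6.95 and 3.07. At FGF20 shARID1A.2 held 4.75 and shARID1A.4 11.5 CPM, and at RELN 4.03 and 7.26. How far each shRNA lowered its target was not analysed here.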

How the results depend on the processing

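The excess of closed over opened first-intron distal sites kept its direction in all 6 comparisons under each alternative. Counts moved by over 1.5 times under the settings that follow, each given in the order combined silencing, shARID1A/B.2.3, shARID1A/B.4.2, ARID1A and ARID1B silencing against Control, then combined against single silencing, as far as they moved. With a log2 change of at least 1, 1957, 2689, 1518, 494, 303 and 164 closed and 102, 153, 209, 31, 81 and 6 opened. With an adjusted p under 0.05, 1470, 1538, 1820, 791, 1126 and 622 opened. Scaled on promoter sites, 123, 199, 193, 45, 186 and 50 opened, and 8126 (combined), 7005 (shARID1A/B.4.2), 4881 (ARID1A) and 2678 (ARID1B) closed. With offsets fitted to abundance, 1008 (combined), 1057 (shARID1A/B.2.3) and 327 (against single) opened. With DESeq2, 418 (combined), 310 (shARID1A/B.2.3), 306 (ARID1B) and 70 (against single) opened. With library totals only, 878 (shARID1A/B.2.3) and 245 (against single) opened, and with only the groups compared, 310 (shARID1A/B.2.3) opened. The cause was not tested.

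Leaving out each library in turn, the opened sites ranged from 480 to 1012 with combined silencing (the highest without shARID1A/B.2.3 replicate 2), from 363 to 624 with shARID1A/B.2.3 (the lowest without Control replicate 3), from 140 to 480 with ARID1A (without Control replicate 2 and shARID1A.2 replicate 2), from 274 to 523 with ARID1B (the lowest without Control replicate 2) and from 94 to 175 against single silencing (the lowest without shARID1A/B.4.2 replicate 3). The difference in read share ranged from -1.0 to -0.91 points. Without a Control library the smallest p that exact permutation allows is 0.0714, so that p could not pass.

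The replicate numbers did not pair libraries across all groups, but the 3 same-numbered pairs of Control and shARID1A/B.2.3 correlated at 0.177, 0.479 and 0.189. With a replicate block that comparison closed 5725 and opened 653 sites, combined silencing closed 5369 and opened 747, and the block moved none of the counts by over 1.5 times. Of the sites named in the text, IGSF9B turned to -0.17 when scaled on promoter sites and -0.33 with offsets fitted to abundance, where ZBTB2 and AC011747.7 turned to -0.14 and -0.13.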
